A study of Mus musculus with 6 samples.

Results

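The accessibility of 42 cell cycle and DNA replication genes was examined by ATAC-seq, in which the Tn5 transposase cuts accessible DNA, in freshly isolated mouse muscle stem cells (MuSCs). The genes were taken from a list of gene symbols, and a peak belonged to a gene when the deposited annotation paired it with that symbol. Of the 42 genes, 40 had at least 1 annotated peak, and together they had 75 of the 75412 peaks of the series. The peak whose centre lay nearest the transcription start site of a gene, if within 1000 bp, is called its TSS peak, and the remaining peaks are called other peaks. By this rule, 39 genes had a TSS peak and 36 peaks were other peaks. All 75 passed the minimum mean value of 10 and were tested. Mcm7 and Aurka had no annotated peak, because their start sites lay in promoter peaks assigned to the neighbouring genes Ap4m1 and Cstf1. The TSS peaks of Cdc25b, E2f8, Mcm4, Pcna and Plk1 also held an annotated start of another gene (Spef1, Gm2788, Prkdc, AV099323 and Gm15489). Differences at these peaks cannot be assigned to the listed gene alone. The only peak of Cdk6 reached over its start site but had its centre 1462 bp away, and therefore counted as an other peak.

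The 6 libraries came from C57BL/6 mice, with 3 libraries of control MuSCs and 3 of Taf4a sKO MuSCs. In the Taf4a sKO, a loxP-flanked Taf4a allele is deleted by a tamoxifen-inducible Cre recombinase expressed from the Pax7 locus, so that the deletion is restricted to cells that express Pax7 at the time of treatment. The genotype and tamoxifen treatment of the control animals and the age of the animals behind these libraries are not given in the labels. For the study as a whole, the paper describes adult animals of both sexes. Its controls were littermates with floxed Taf4a alleles, with or without the Cre allele. TAF4A is a subunit of the general transcription factor TFIID. MuSCs were sorted with antibodies after removal of blood, endothelial and fibroblast-like cells, and the libraries hold all sorted cells in bulk, so that a change in the share of cells with an accessible site and a change in accessibility per cell cannot be told apart.

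MuSCs rest in quiescence and enter the cell cycle after injury. D-type cyclins with CDK4 and CDK6 start the passage through G1 by phosphorylating the retinoblastoma protein, which frees E2F factors. E2F factors then drive genes for origin licensing, nucleotide synthesis and DNA replication, whereas genes that act in mitosis carry CCAAT boxes bound by NF-Y and CHR elements bound by the DREAM and MMB complexes. In resting cells, repressor E2F and DREAM complexes are known to occupy many of these promoters.

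Promoter sequences are shown to set these elements beside the accessibility of the same promoters. The sequences are from RefSeq on GRCm38.p6 and hold the 250 bases before the transcription start, written 5′ to 3′ on the strand of the gene. Shown are Mycn (chr12:12941837-12942086, minus strand), Mcm6 (chr1:128359706-128359955, minus strand) and Rrm1 (chr7:102441445-102441694, plus strand), whose TSS peaks were called higher in Taf4a sKO MuSCs. Also shown are Cdk1 (chr10:69352913-69353162, minus strand) and Mki67 (chr7:135716380-135716629, minus strand), whose TSS peaks were not called. These calls are those in the authors' scaling for sequencing depth. With each of the 3 other scalings described further down Mki67 was called lower, and Cdk1 with some of them. Capitals mark, on either strand, the CCAAT box, the CHR elements TTTGAA and TTCGAA, and the E2F sites TTTCCCGC, TTTGGCGC, TTTCGCGC and TTTGCCGC.
Mycn: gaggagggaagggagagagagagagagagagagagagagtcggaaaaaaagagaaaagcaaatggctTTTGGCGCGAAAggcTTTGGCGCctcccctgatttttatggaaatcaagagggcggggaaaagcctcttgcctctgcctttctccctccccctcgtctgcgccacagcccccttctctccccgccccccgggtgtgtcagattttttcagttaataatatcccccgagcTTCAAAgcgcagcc
Mcm6: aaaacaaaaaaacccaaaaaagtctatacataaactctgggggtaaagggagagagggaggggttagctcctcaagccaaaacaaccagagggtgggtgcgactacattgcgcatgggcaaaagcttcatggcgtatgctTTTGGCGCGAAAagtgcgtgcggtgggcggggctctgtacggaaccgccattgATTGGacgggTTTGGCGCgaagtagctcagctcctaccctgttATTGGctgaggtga
Rrm1: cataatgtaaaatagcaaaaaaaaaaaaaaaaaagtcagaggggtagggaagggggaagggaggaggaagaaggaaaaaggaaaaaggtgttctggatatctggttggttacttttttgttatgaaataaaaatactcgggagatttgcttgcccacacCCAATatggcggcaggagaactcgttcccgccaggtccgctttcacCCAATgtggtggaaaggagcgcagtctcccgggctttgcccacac
Cdk1: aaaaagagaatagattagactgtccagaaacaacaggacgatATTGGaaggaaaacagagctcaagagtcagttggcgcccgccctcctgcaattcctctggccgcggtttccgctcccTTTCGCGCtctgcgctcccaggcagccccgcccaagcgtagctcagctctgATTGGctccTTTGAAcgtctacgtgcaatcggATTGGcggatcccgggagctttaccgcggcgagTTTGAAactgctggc
Mki67: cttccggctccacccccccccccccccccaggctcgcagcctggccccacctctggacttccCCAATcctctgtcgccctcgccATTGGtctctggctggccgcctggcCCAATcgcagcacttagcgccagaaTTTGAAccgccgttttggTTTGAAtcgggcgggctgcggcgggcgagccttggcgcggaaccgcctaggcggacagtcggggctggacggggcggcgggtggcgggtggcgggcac
The Mycn sequence held 3 E2F matches, 2 of which overlapped, 183, 179 and 168 bases before the start, and a CHR match 14 bases before it. Mcm6, a subunit of the replicative helicase, had E2F matches 110, 106 and 47 bases and CCAAT boxes 57 and 14 bases before the start, and the first 2 of the E2F matches overlapped. In Rrm1, the large subunit of ribonucleotide reductase, the matches were CCAAT boxes at 91 and 45 bases. The promoter of Cdk1, the kinase that drives entry into mitosis, held CCAAT boxes at 208, 80 and 48 bases, CHR matches at 71 and 15 bases and an E2F match at 131 bases. Mki67, which encodes the proliferation marker Ki-67, had CCAAT boxes at 188, 166 and 141 bases and CHR matches at 116 and 98 bases.

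The promoter table held 34 of the 42 genes, not Ccnd1, Ccnd2, Ccne2, Ccna2, E2f4, Mcm4, Aurkb and Myc. In windows of 300 bases, from 250 before to 50 after the start, 24 of these 34 genes had a CCAAT box (70.6%), 13 a CHR match (38.2%) and 12 an E2F match (35.3%). Among all 32851 promoters of the table the shares were 37.4%, 19.2% and 2.26%. In the 12604 of them that overlapped a TSS peak of these data the shares were 37.5%, 12.4% and 4.32%. In the authors' scaling, the 4 genes with a higher TSS peak and a promoter in the table included 3 with a CCAAT box, 1 with a CHR match and 3 with an E2F match, against 19, 11 and 9 of the 27 genes whose TSS peak was not called. These are matches of letters, with no test of binding.

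The deposited values are read counts per peak that the authors normalized for sequencing depth and rounded, called normalized read counts here. They summed to 37722015, 35226223 and 42803315 over all peaks in the control libraries and to 44311913, 41661725 and 41948821 in the Taf4a sKO libraries. Control replicate 2 had the lowest sum and Taf4a sKO replicate 1 the highest. The targeted gene, listed as Taf4, was examined first. At the peak over exon 12 (chr2:179922849-179923263), which belongs to the loxP-flanked stretch, the values were 65, 78 and 137 in control and 44, 22 and 25 in Taf4a sKO libraries, with no overlap (log2 difference -1.58, SE 0.30, adjusted p = 3.4e-04 from limma). Outside this stretch, the peak over exon 7 (chr2:179931701-179932202) also fell, from 253, 249 and 302 to 140, 145 and 165 (log2 difference -0.83, SE 0.15, adjusted p = 1.4e-04 from limma), and so did an intronic peak (chr2:179916955-179917641), from 132, 123 and 159 to 104, 95 and 93 (adjusted p = 0.027 from limma), both without overlap. The Taf4 promoter peak (chr2:179975752-179977530) had 2305, 1998 and 2375 against 2095, 2124 and 2104, a difference within the spread of the replicates (adjusted p = 0.59 from limma). These results at Taf4 are in the authors' scaling, and the other scalings described further down were not read at this gene.

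All 12 MuSC markers examined had a TSS peak. These peaks summed to 20781, 17968 and 22111 in control and 20763, 19663 and 19532 in Taf4a sKO libraries, Pax7 having the highest mean, and 2 of them were called higher (Myod1 and Vcam1) and 1 lower (Pax7), where 12.8% of the TSS peaks of all genes were higher and 6.35% lower. With each of the 3 other scalings described further down, 5 of the 12 were lower. Higher ones numbered 2, 0 and 1 with median-of-ratios factors, the total value and quantile normalization. Of the TSS peaks of all genes 22.6%, 32.0% and 33.4% were lower and 12.4%, 10.4% and 11.3% higher in the same order. Of 10 haematopoietic markers, Cd68 was the only one with a TSS peak, and its values of 201, 208 and 307 fell to 129, 133 and 129 (adjusted p = 3.7e-04 from limma). Ptprc, which encodes CD45, had no annotated peak. The 3 other peaks of this list had sums of 842, 941 and 942 against 1252, 1103 and 1385, the highest mean at Spi1, and 1 of them called higher. Among endothelial markers 5 of 10 had a TSS peak, without Pecam1 and Cdh5, of which 2 were called higher (Flt1 and Tek) and none lower. Their sums were 2078, 2023 and 2593 against 2760, 2809 and 2727, and Tek was the most accessible. In each of the other 3 scalings 1 of the 5 was higher and none lower. Fibro-adipogenic and tenocyte markers had 6 TSS peaks for 10 genes, without Pdgfra and Ly6a, with 3 called higher (Col1a1, Dcn and Lum) and 1 lower (Dpt). They summed to 4735, 4291 and 5371 against 6213, 5505 and 5641, and Scx was the most accessible. In the other 3 scalings, in the order above, 4, 3 and 4 of the 6 were higher and 2 lower in each. Of mural markers 7 of 8 had a TSS peak, with 2 called higher (Acta2 and Myh11) and none lower, sums of 4878, 4703 and 5273 against 5641, 5310 and 5437, and the highest mean at Acta2; Rgs5 had none. The 4 myofibre TSS peaks among 10 genes summed to 5798, 5084 and 6566 against 6854, 6110 and 6011, with Mylpf highest and no TSS peak at Acta1, and none was called (1 of them had an unadjusted p under 0.05 in limma). Of 13 other peaks of myofibre genes 5 were lower and 0 higher (limma; 0 higher at an unadjusted p under 0.05), where 14.8% and 28.6% of the other annotated peaks of all genes were lower and higher. The one near Acta1, 3196 bp from its start, fell from 279, 317 and 280 to 205, 169 and 178 (adjusted p = 8.5e-04 from limma). In the other 3 scalings, in the order above, 5, 7 and 8 of the 13 were lower and 0 higher. With quantile normalization 1 of the 4 myofibre TSS peaks was called higher. Among other peaks, 13 of 38 at MuSC markers were higher and 4 lower, 4 of 8 at endothelial markers higher and 1 lower, 5 of 16 at fibro-adipogenic and tenocyte markers higher and 1 lower, and 8 of 10 at mural markers higher. In the other 3 scalings, in the order above, 11, 11 and 8 of the 38 at MuSC markers were higher and 7, 9 and 8 lower. At mural markers 7, 6 and 5 of the 10 were higher and 1 lower in each. At fibro-adipogenic and tenocyte markers 4 of the 16 were higher and 2 lower in each. Among the other annotated peaks of all genes 26.1%, 24.3% and 25.2% were higher and 23.2%, 25.6% and 24.9% lower in these scalings. Of the 7 mural TSS peaks 2, 2 and 1 were higher and 1, 2 and 2 lower. The part of these differences in the results on cell cycle genes was not tested.

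At the start sites of cell cycle genes few differences passed the test in the authors' scaling. In Taf4a sKO MuSCs, 4 of the 39 TSS peaks rose, those of Mycn, Mcm6, Rrm1 and E2f7, and 1 fell, that of Ccne2 (limma, adjusted p under 0.05). The changes were small, between 1.23- and 1.36-fold for the peaks that rose and 0.801-fold for Ccne2, and no TSS peak of these genes was gained or lost by a log2 ratio beyond 1. The 4 peaks make 10.3% of the 39 and the 1 peak 2.56%, whereas among the 13774 TSS peaks of all genes 12.8% were higher and 6.35% lower. Of all 75384 peaks tested, 28.0% were higher and 13.9% were lower. The remaining 34 TSS peaks were not called. Their log2 differences ran from -0.35 at Plk1 to 0.28 at Ccnd3, and the smallest adjusted p among them was 0.057 at Plk1.

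**Figure D1:**
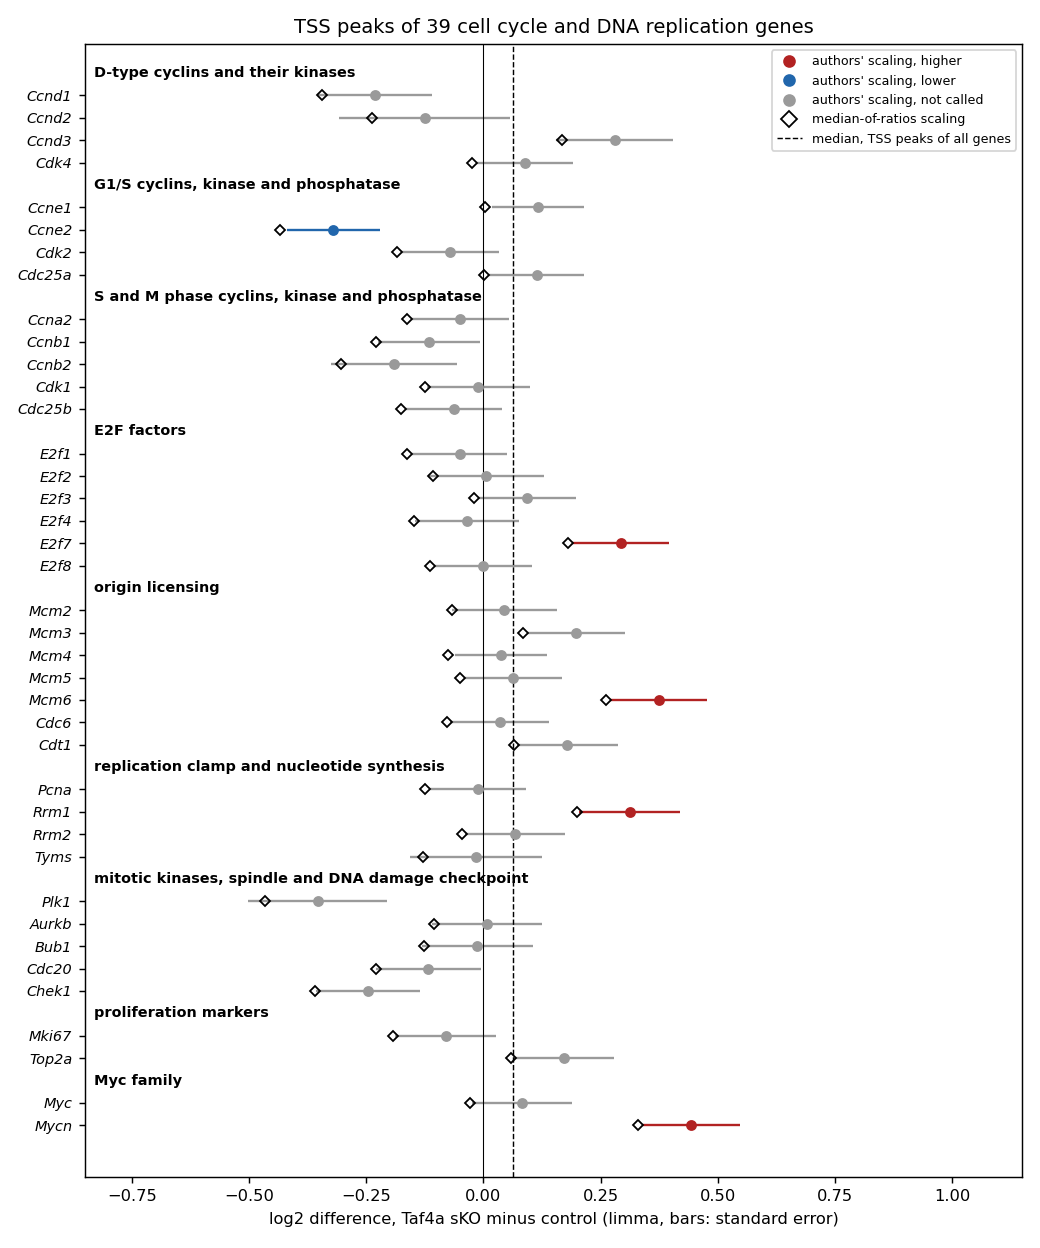
Log2 difference of Taf4a sKO minus control (horizontal axis) at the TSS peak of 39 genes, ordered by role. Filled circles with standard errors are limma estimates in the authors' scaling (red higher, blue lower, grey not called), open diamonds the same peaks with median-of-ratios scaling, and the dashed line the median of the TSS peaks of all genes. The 4 red circles are E2f7, Mcm6, Rrm1 and Mycn, the blue one is Ccne2, and every diamond lies to the left of its circle.

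These calls depended on how the libraries were scaled to each other. In the authors' scaling the median log2 difference of all peaks was 0.11, and it moved down by 0.11 to -0.01 with median-of-ratios factors. With median-of-ratios factors 4 TSS peaks of cell cycle genes were higher and 13 lower (33.3%), where 12.4% and 22.6% of the TSS peaks of all genes were. Scaling to the total value in peaks gave 3 higher and 15 lower (38.5%), against 10.4% and 32.0% of all genes, and quantile normalization 2 higher and 18 lower (46.2%), against 11.3% and 33.4%. Mycn and Mcm6 were called higher and Ccne2 lower in all 4 scalings. The 13 TSS peaks lower in each of the other 3 scalings were those of Ccnd1, Ccne2, Cdk2, Ccna2, Ccnb1, Ccnb2, Cdc25b, E2f1, Pcna, Plk1, Cdc20, Chek1 and Mki67. Relative to the median of all peaks, the median TSS peak of the 39 genes stood at -0.10 in the authors' scaling and in both scalings by a factor, and at -0.13 after quantile normalization. For the TSS peaks of all genes this relative median was -0.04, -0.04, -0.04 and -0.05 in the same order.

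Among D-type cyclins and their kinases, which act at the start of G1, none of 4 TSS peaks was called (limma; 1 had an unadjusted p under 0.05). Cyclin D1, encoded by Ccnd1, had TSS peak values (chr7:144939634-144940335) of 618, 637 and 701 in control and 611, 497 and 561 in Taf4a sKO libraries. All Taf4a sKO values lay below all control values, by a log2 difference of -0.23 that did not pass the test (SE 0.12, adjusted p = 0.14 from limma). With median-of-ratios scaling the difference was -0.34 and passed it (adjusted p = 0.0058 from limma). The peaks of Ccnd2, Ccnd3 and Cdk4 had log2 differences of -0.13, 0.28 and 0.09 in the authors' scaling. The TSS peak assigned to Ccnd2 lay in an intron downstream of the annotated start, and overlapped no exon of its first-listed transcript. The peak over exon 1 of Ccnd2, 1109 bp downstream, which holds an annotated start of the gene, was counted among its other peaks (log2 difference -0.02, adjusted p = 0.94 from limma).

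Cyclin E with CDK2 carries cells from G1 into S phase. The TSS peak of Ccne2, cyclin E2 (chr4:11190465-11192432), held 2431, 2401 and 2730 in control and 2023, 2010 and 2014 in Taf4a sKO libraries. The 3 Taf4a sKO libraries lay close together and below every control library. The mean fell from 2521 ± 182 to 2016 ± 6.66 (SD, n = 3 each), a log2 difference of -0.32 (SE 0.10, adjusted p = 0.012 from limma). Without Taf4a sKO replicate 2 or 3 the adjusted p was 0.057 or 0.059 from limma, and without trend and robust moderation 0.061, at a difference of -0.32 in each. At Ccne1, the other cyclin E gene, the TSS peak had a log2 difference of 0.12 (adjusted p = 0.37 from limma). Cdk2 stood at -0.07 and Cdc25a, the phosphatase that activates it, at 0.11, both uncalled. In each of the other 3 scalings Cdk2 was called lower (-0.18, adjusted p = 0.0077 from limma with median-of-ratios factors).

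None of the 5 TSS peaks of S and M phase regulators was called in the authors' scaling, and none had an unadjusted p under 0.05 in limma. Cdk1, whose promoter sequence is shown above, had TSS peak values (chr10:69352272-69353330) of 1373, 1328 and 1689 in control and 1508, 1391 and 1435 in Taf4a sKO libraries. The groups overlapped, and the log2 difference was -0.01 (SE 0.11, adjusted p = 0.95 from limma). Differences at Ccna2, Ccnb1, Ccnb2 and Cdc25b were -0.05, -0.12, -0.19 and -0.06. All 5 were below 0, and with median-of-ratios scaling 4 of them, without Cdk1, were called lower. With the total value and with quantile normalization all 5 were, Cdk1 at -0.16 in both (adjusted p = 0.022 and 0.018 from limma).

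In the E2F family, 1 of 6 TSS peaks rose. E2f7 encodes an atypical E2F that represses E2F targets late in the cycle, and its TSS peak (chr10:110744866-110745968) had 1271, 1148 and 1263 in control and 1452, 1468 and 1591 in Taf4a sKO libraries. Each Taf4a sKO value was above each control value (log2 difference 0.29, SE 0.10, adjusted p = 0.025 from limma). The call did not hold when Taf4a sKO replicate 1, 2 or 3 or control replicate 1 or 2 was left out, with adjusted p of 0.052, 0.069, 0.16, 0.059 and 0.057 from limma. Nor did it hold with the total value, quantile normalization or without trend and robust moderation (adjusted p = 0.090, 0.086 and 0.084 from limma). The activators E2f1, E2f2 and E2f3 stood at -0.05, 0.01 and 0.09 and the repressor E2f4 at -0.03, and neither these 4 nor the atypical E2f8 was called in the authors' scaling. With median-of-ratios scaling E2f8 stood at -0.11, uncalled, and E2f1 at -0.16, called lower (adjusted p = 0.0053 from limma). With quantile normalization E2f1, E2f4 and E2f8 were called lower, E2f4 and E2f8 with adjusted p of 0.012 and 0.041 from limma.

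Origin licensing loads the MCM helicase onto DNA before S phase. All 7 TSS peaks of this group had a positive log2 difference in the authors' scaling, from 0.03 at Cdc6 to 0.37 at Mcm6, and 1 rose. With median-of-ratios scaling 4 of the 7 were below 0, those of Mcm2, Mcm4, Mcm5 and Cdc6, and with the total value Mcm4 was called lower (-0.11, adjusted p = 0.020 from limma). The Mcm6 TSS peak (chr1:128359125-128360169) had 1017, 950 and 1063 in control and 1309, 1299 and 1315 in Taf4a sKO libraries. The genotypes were well apart, and the mean rose from 1010 ± 56.8 to 1308 ± 8.08 (SD, n = 3 each; log2 difference 0.37, SE 0.10, adjusted p = 0.0054 from limma). That of Mcm2 (chr6:88898324-88899069) had 1178, 963 and 1224 against 1157, 1181 and 1116. These ranges overlapped, the log2 difference was 0.05 (SE 0.11, adjusted p = 0.78 from limma), and its sign was negative with each of the other 3 scalings. The start sites of Mcm7 lay in the Ap4m1 peak (chr5:138170909-138172491), which had 2819, 2546 and 2926 against 3018, 3031 and 2919 (log2 difference 0.12, adjusted p = 0.37 from limma).

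Of the replication clamp and nucleotide synthesis genes, Rrm1 had a TSS peak that rose. Its values (chr7:102441345-102442393) were 1056, 922 and 1094 in control and 1341, 1237 and 1230 in Taf4a sKO libraries, without overlap (log2 difference 0.31, SE 0.11, adjusted p = 0.022 from limma). Without Taf4a sKO replicate 1, 2 or 3 or control replicate 2, the adjusted p was 0.11, 0.057, 0.061 and 0.074 from limma. With quantile normalization it was 0.073 and without trend and robust moderation 0.081. Pcna encodes the sliding clamp of DNA polymerases, and its TSS peak (chr2:132252532-132253592) had 3054, 2571 and 3256 against 2968, 2960 and 2837. The Taf4a sKO values lay inside the control range (log2 difference -0.01, SE 0.10, adjusted p = 0.94 from limma). With median-of-ratios scaling Pcna had a log2 difference of -0.13 and was called lower (adjusted p = 0.048 from limma). Rrm2, the small subunit of ribonucleotide reductase, stood at 0.07 and Tyms, thymidylate synthase, at -0.02, both uncalled.

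No TSS peak of the mitotic kinase, spindle and checkpoint genes passed the test (limma; 2 of 5 had an unadjusted p under 0.05, both with lower values). Plk1, the mitotic Polo-like kinase, and Chek1, the checkpoint kinase CHK1, had the lowest log2 differences, -0.35 (adjusted p = 0.057 from limma) and -0.25 (adjusted p = 0.079 from limma). Cdc20, the activator of the anaphase-promoting complex, stood at -0.12, Bub1 of the spindle checkpoint at -0.01 and Aurkb at 0.01. Plk1, Chek1 and Cdc20 were called lower with median-of-ratios scaling and with the total value. With quantile normalization all 5 were, Bub1 at -0.23 and Aurkb at -0.22 (adjusted p = 0.030 and 0.046 from limma). The start sites of Aurka lay in the Cstf1 peak (chr2:172370158-172371287), with 1742, 1531 and 1850 against 1606, 1677 and 1695 (log2 difference -0.04, adjusted p = 0.80 from limma). For Mki67 the TSS peak (chr7:135715761-135717014) had 1523, 1396 and 1755 in control and 1471, 1415 and 1516 in Taf4a sKO libraries. These ranges overlapped (log2 difference -0.08, SE 0.11, adjusted p = 0.58 from limma), and with median-of-ratios scaling the difference was -0.19 and called (adjusted p = 0.0094 from limma). Top2a, the topoisomerase that untangles replicated chromosomes, stood at 0.17, uncalled.

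The largest positive difference among the 39 TSS peaks in the authors' scaling was at Mycn, which encodes a MYC family factor that drives growth and proliferation. Its values (chr12:12941213-12943009) were 2476, 2366 and 2908 in control and 3752, 3350 and 3410 in Taf4a sKO libraries. The lowest Taf4a sKO library was above the highest control library, and the mean rose from 2583 ± 286 to 3504 ± 217 (SD, n = 3 each; 1.36-fold, log2 difference 0.44, SE 0.10, adjusted p = 0.0014 from limma). The Myc TSS peak (chr15:61984389-61985899) had 3825, 3450 and 4531 against 4445, 3937 and 4064. The Taf4a sKO values lay within the control range (log2 difference 0.08, SE 0.11, adjusted p = 0.57 from limma), and the sign was negative with each of the other 3 scalings.

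**Figure D2:**
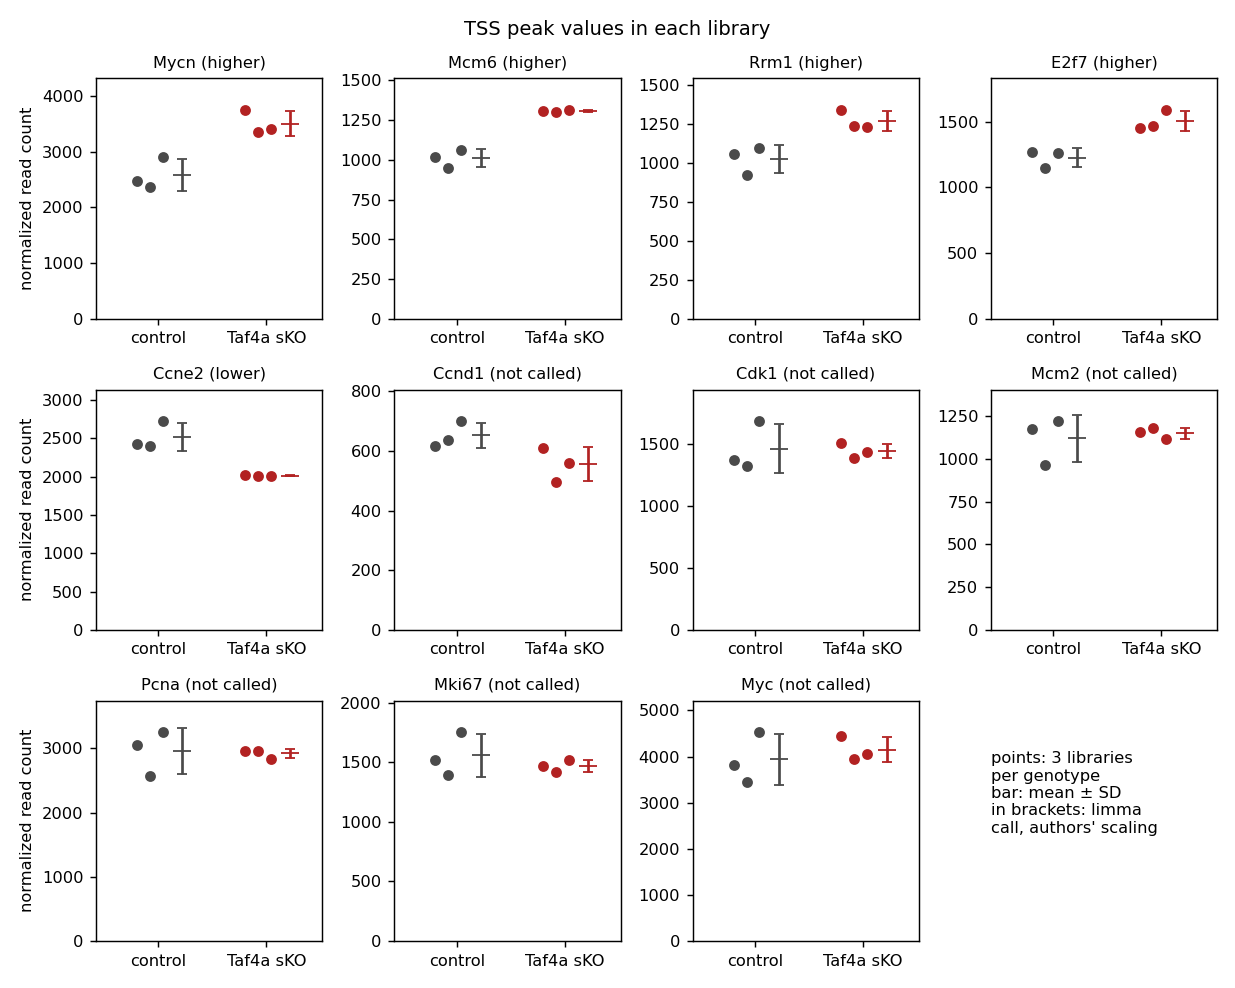
Normalized read counts (vertical axes, each starting at 0) of the TSS peaks of Mycn, Mcm6, Rrm1, E2f7, Ccne2, Ccnd1, Cdk1, Mcm2, Pcna, Mki67 and Myc in the 3 control libraries (grey) and 3 Taf4a sKO libraries (red), with mean ± SD. In the 5 called peaks and in Ccnd1 the genotypes do not overlap, whereas in the other 5 they do.

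Values per kb of peak allow levels to be compared between genes. In control MuSCs the mean level at the 39 TSS peaks ran from 312 per kb at Tyms to 3693 per kb at E2f3, with a median of 1281 per kb, against 967 per kb for the TSS peaks of all genes. In the median control library, 30 of the 39 genes ranked in the upper part of the TSS peaks of all genes, above the middle rank. The set of all genes was not limited to protein-coding genes, and the part of this in the difference was not tested. E2f3, Ccne1, Mcm4, Pcna, Cdk4 and Myc were the most accessible, at 3693 ± 433, 3132 ± 206, 2871 ± 225, 2793 ± 332, 2610 ± 247 and 2606 ± 363 per kb (SD, n = 3). Tyms, Plk1 and Ccnd2 were the least, at 312 ± 7.32, 315 ± 55.1 and 375 ± 24.6 per kb. The Ccnd2 value is that of the intron peak, and the peak over its exon 1 stood at 573 ± 76.6 per kb. Of the 38 neighbouring pairs in this order, 30 differed by no more than the larger of their SDs. The order between most neighbours is therefore within the replicate spread. Only neighbours were compared, and genes far apart in the order, such as Tyms and E2f3, differed by far more than their SDs.

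The rank of a peak among the TSS peaks of its own library does not depend on the factor by which the library is scaled, and was added after the data had been seen. By percentile of the value per kb, 4 of the 39 TSS peaks (10.3%) stood higher in every Taf4a sKO library than in any control library and 14 (35.9%) lower, against 22.9% and 27.3% of the TSS peaks of all genes. The 4 were Mycn, Mcm6, Rrm1 and E2f7, which are also the peaks that the test called higher. Mycn stood at percentiles of 67.9, 69.9 and 71.4 in control and 84.0, 81.4 and 82.3 in Taf4a sKO libraries, and Ccne2 at 62.0, 65.6 and 63.2 against 50.0, 50.5 and 50.6. The 14 lower ones shared 12 genes with the 13 called lower by median-of-ratios scaling, and held E2f4 and Aurkb in addition but not Pcna. By role, 4 of the 5 S and M phase regulators and 4 of the 5 mitotic and checkpoint genes were among the 14, and 0 of the 7 origin licensing genes. The 14 also held 2 of the 4 G1/S genes, 2 of the 6 E2F factors, 1 of the 4 D-type cyclins and kinases and 1 of the 2 proliferation markers. They held 0 of the 4 replication clamp and nucleotide synthesis genes and 0 of the 2 Myc family genes. No test was made of these counts.

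**Figure D3:**
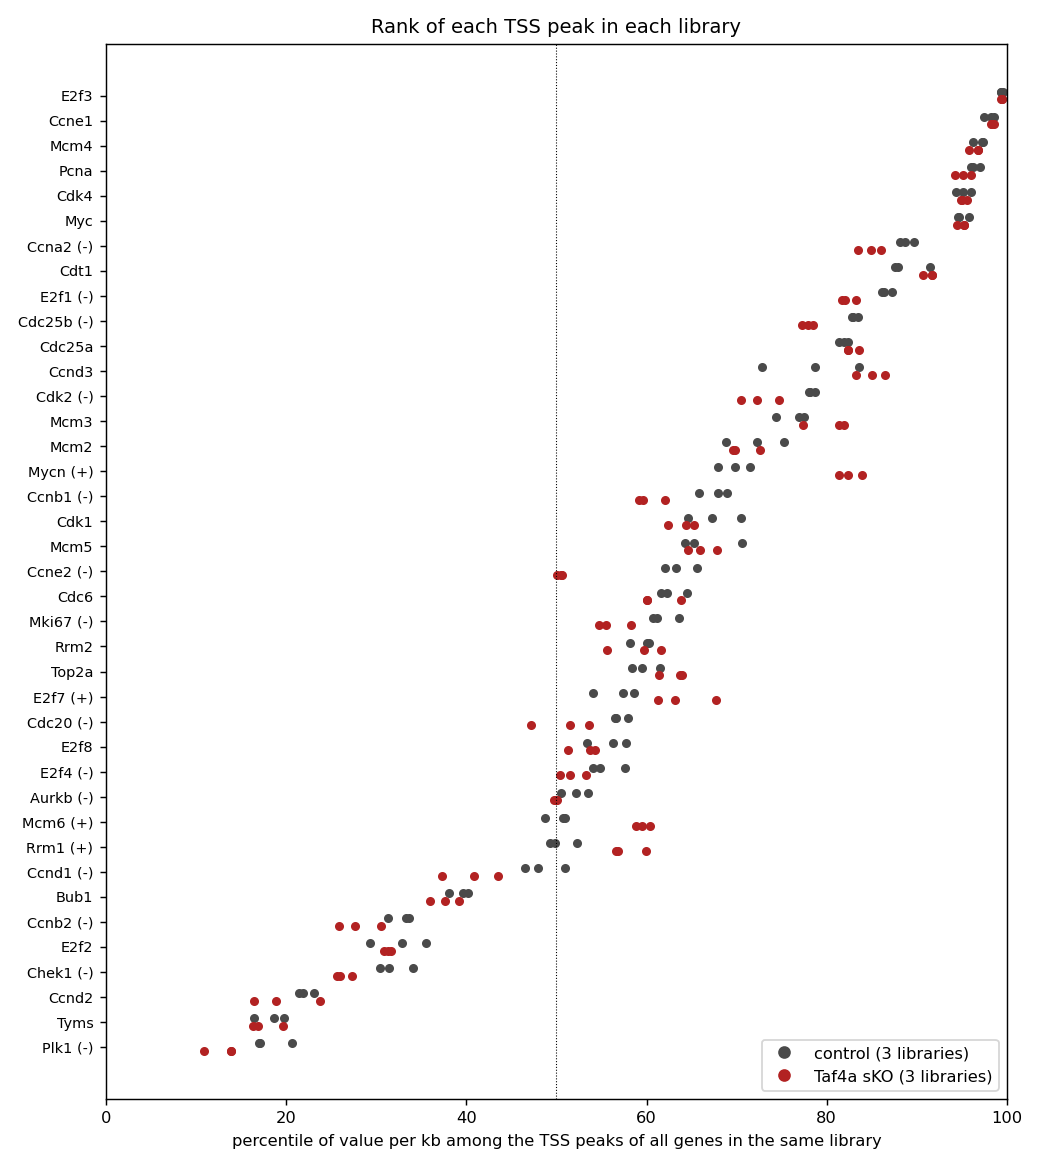
Percentile of the value per kb (horizontal axis) of each of 39 TSS peaks among the TSS peaks of all genes in the same library, in 3 control (grey) and 3 Taf4a sKO libraries (red), ordered by the control median. The 4 genes marked (+) have every Taf4a sKO library above every control library, the 14 marked (-) every one below, and the control median of 30 of the 39 genes lies to the right of the dotted middle line.

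The 36 other peaks belonged to 15 genes and lay a median of 5026 bp from the start, 17 upstream and 19 downstream. In Taf4a sKO MuSCs 2 of them rose, at Ccnd1 and Myc (5.56%), and 2 fell, both at E2f2 (5.56%), where 28.6% and 14.8% of the other annotated peaks of all genes were higher and lower (limma, adjusted p under 0.05). With median-of-ratios scaling 2 were higher and 6 lower (16.7%), against 26.1% and 23.2% of the other annotated peaks of all genes. Scaling to the total value gave 2 higher and 9 lower (25%), against 24.3% and 25.6%, and quantile normalization 2 higher and 8 lower (22.2%), against 25.2% and 24.9%. In the authors' scaling the median log2 difference was 0.01, against 0.10 for the other annotated peaks of all genes. One of the 75 peaks was gained and none was lost by a log2 ratio of group means beyond 1, against 7.02% and 5.36% of all peaks. No gene had peaks called in opposite directions in the authors' scaling. In each of the other 3 scalings 2 genes had, Ccnd1 with a lower TSS peak and a higher peak 5971 bp downstream, and Mycn with a higher TSS peak and a lower peak 9583 bp downstream.

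**Figure D4:**
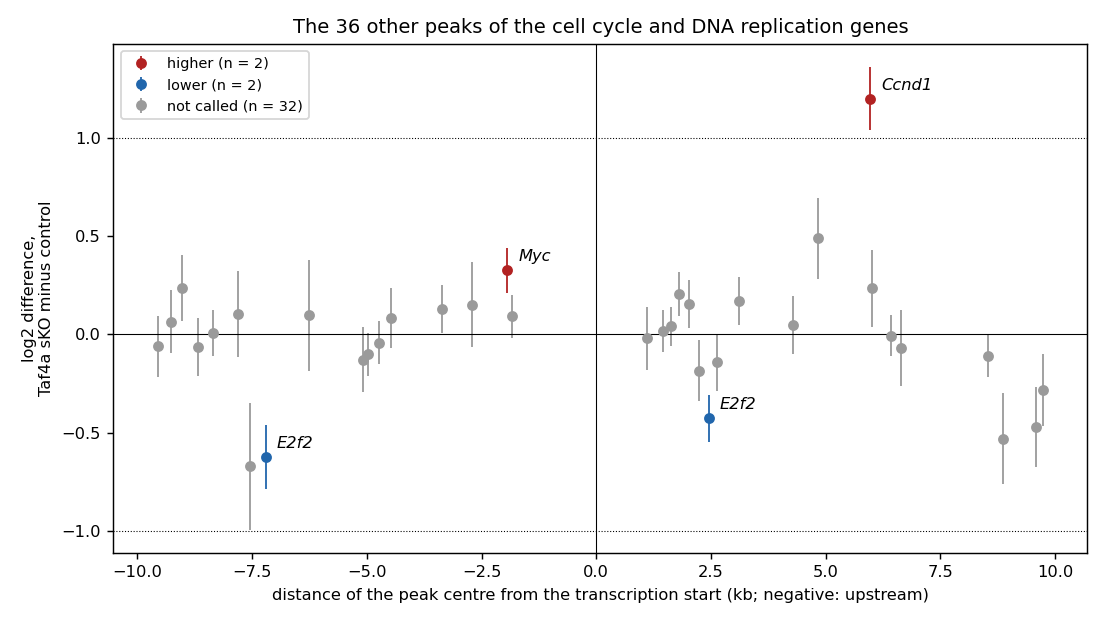
Log2 difference of Taf4a sKO minus control with its standard error (vertical axis) at the 36 other peaks, by distance of the peak centre from the transcription start in kb (horizontal axis). Red points are called higher, blue lower and grey not called by limma, and dotted lines mark the log2 threshold of 1. The Ccnd1 peak at 5971 bp lies above the upper line and no peak below the lower one.

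The gained peak lay in Ccnd1, 5971 bp downstream of the start, over exon 4 of the 5 exons (chr7:144933766-144934141). Its values were 114, 147 and 145 in control and 355, 267 and 316 in Taf4a sKO libraries. The lowest Taf4a sKO library was above the highest control library, and the mean rose from 135 ± 18.5 to 313 ± 44.1 (SD, n = 3 each). The fitted log2 difference was 1.20, or 2.30-fold (SE 0.16, adjusted p = 3.0e-06 from limma). The next peak towards the start, at 4823 bp in an intron, had 218, 230 and 182 against 429, 215 and 275. Here the ranges overlapped (log2 difference 0.49, SE 0.20, adjusted p = 0.067 from limma). The other Ccnd1 peaks, 2013 bp downstream and 1844 and 3367 bp upstream, had log2 differences of 0.16, 0.09 and 0.13, and were not called. The TSS peak of Ccnd1, described above, stood at -0.23.

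Both peaks that fell belonged to E2f2, an activator E2F. One lay in an intron 2457 bp downstream of the start (chr4:136174480-136175222), with 1203, 1074 and 1523 in control and 948, 907 and 941 in Taf4a sKO libraries. All Taf4a sKO values were below all control values, and control replicate 3 was the highest (log2 difference -0.43, SE 0.12, adjusted p = 0.0060 from limma). Without control replicate 3 the difference was -0.29 (adjusted p = 0.0077 from limma), and without trend and robust moderation the adjusted p was 0.054. The second peak lay 7200 bp upstream (chr4:136165061-136165326), with 318, 253 and 271 against 208, 143 and 199, again without overlap (log2 difference -0.62, SE 0.16, adjusted p = 0.0035 from limma). The TSS peak of E2f2 and its 3 further peaks had log2 differences of 0.01, 0.08, -0.11 and -0.06 and were not called in the authors' scaling. The one at -0.11, 8538 bp downstream over exons 3 and 4, was called lower in each of the other 3 scalings (-0.22, adjusted p = 0.0040 from limma with median-of-ratios factors).

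At Myc, the peak 1936 bp upstream of the start (chr15:61983203-61983706), which holds an annotated start of the transcript Gm37947, had 1064, 943 and 1288 in control and 1427, 1331 and 1344 in Taf4a sKO libraries. The control libraries were widely spread and all lay below the Taf4a sKO libraries (log2 difference 0.33, SE 0.12, adjusted p = 0.025 from limma). The call was lost without Taf4a sKO replicate 1, 2 or 3 or control replicate 1 or 2, with adjusted p of 0.092, 0.052, 0.061, 0.069 and 0.12 from limma, and without trend and robust moderation (adjusted p = 0.11 from limma). Further Myc peaks 1805, 6016 and 6642 bp downstream had log2 differences of 0.21, 0.24 and -0.07, uncalled. Of the remaining other peaks, none of the 5 at Ccnd2, 3 at Rrm2, 3 at Aurkb, 2 at Mki67 and 2 at Mycn was called by limma in the authors' scaling. With median-of-ratios scaling the Rrm2 peak 8857 bp downstream and the Aurkb peak 4728 bp upstream were called lower. Their log2 differences were then -0.64 and -0.15 (adjusted p = 0.023 and 0.017 from limma). Some further peaks at Rrm2 and Aurkb were called lower only with the total value or quantile normalization. The only Cdk6 peak, at a log2 difference of 0.02 in the authors' scaling, was called lower with the total value alone (-0.13, adjusted p = 0.044 from limma). For the Ccnd3 peak 6413 bp downstream, at -0.01, this held with the total value and with quantile normalization (adjusted p = 0.014 and 0.016 from limma). The Mycn peak at 9583 bp (chr12:12932122-12932540) had 93, 103 and 89 in control and 82, 55 and 70 in Taf4a sKO libraries, without overlap (log2 difference -0.47, adjusted p = 0.066 from limma; -0.58 and 0.024 with median-of-ratios scaling).

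**Figure D5:**
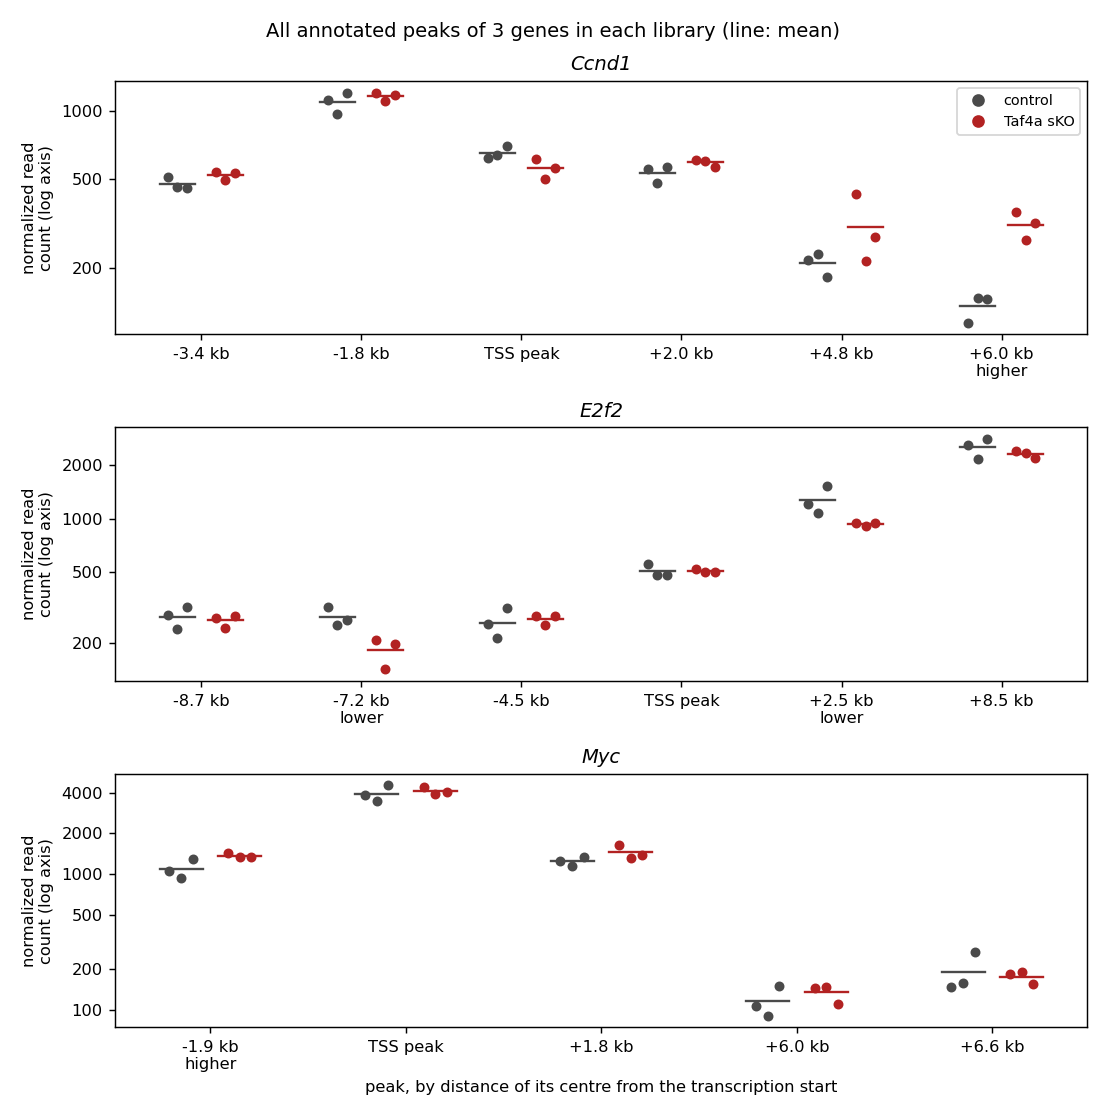
Normalized read counts (vertical axes, log scale) of all annotated peaks of Ccnd1, E2f2 and Myc in the 3 control (grey) and 3 Taf4a sKO libraries (red), ordered by distance of the peak centre from the transcription start, with lines at the means. The peaks called are the one 5971 bp downstream in Ccnd1, those 7200 bp upstream and 2457 bp downstream in E2f2, and the one 1936 bp upstream of Myc; the TSS peaks of the 3 genes are not called.

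Other genes of the same pathways were read from lists. Of 42 further replication genes, 31 had a TSS peak, of which 2 were higher and 0 lower (limma; none lower also at an unadjusted p under 0.05), and 3 of their 13 other peaks were lower. Among the TSS peaks of all genes 12.8% were higher and 6.35% lower. With median-of-ratios factors, the total value and quantile normalization, 7, 15 and 16 of the 31 TSS peaks were lower (22.6%, 48.4% and 51.6%), against 22.6%, 32.0% and 33.4% of all genes, and 6 of the 13 other peaks were lower in each. Of the other annotated peaks of all genes 28.6% were higher and 14.8% lower in the authors' scaling, and 23.2%, 25.6% and 24.9% were lower in the 3 others. The TSS peak of Pole2, a subunit of DNA polymerase epsilon, had 1612, 1422 and 1850 in control and 2272, 2187 and 2129 in Taf4a sKO libraries, without overlap (log2 difference 0.44, adjusted p = 0.0021 from limma). A peak 8065 bp downstream of the start of Pold2, a subunit of DNA polymerase delta, fell from 639, 558 and 689 to 475, 392 and 355, also without overlap (log2 difference -0.63, adjusted p = 6.5e-04 from limma). Among 38 further mitosis genes, 0 of 34 TSS peaks were called (limma; 1 had an unadjusted p under 0.05), while 2 of 10 other peaks were higher. In the other 3 scalings, in the same order, 13, 15 and 17 of these 34 TSS peaks were lower (38.2%, 44.1% and 50%), and of the 10 other peaks 2, 1 and 1 were higher and 3, 3 and 2 lower. The peak 7100 bp upstream of Wee1, the kinase that restrains CDK1, had 128, 132 and 161 against 237, 189 and 174 (log2 difference 0.50, adjusted p = 0.018 from limma).

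E2F partners and DREAM or MuvB subunits had 9 TSS peaks and 3 other peaks, and none was called in the authors' scaling (limma; 1 TSS peak had an unadjusted p under 0.05). In each of the other 3 scalings 2 of the 9 TSS peaks were lower (22.2%), and of the 3 other peaks 1, 1 and 2 were. Of 18 G1 regulators, CDK activators and Myc partners, 15 had a TSS peak, 1 of which was higher and 0 lower (limma; 0 lower at an unadjusted p under 0.05), and of their 12 other peaks 2 were higher and 1 lower. Lower TSS peaks numbered 5, 6 and 8 of the 15 (33.3%, 40% and 53.3%) in the other 3 scalings, and higher ones 2 in each. Of the 12 other peaks 3, 2 and 4 were higher and 1, 1 and 2 lower in these scalings. For comparison, 12.8% of the TSS peaks of all genes were higher and 6.35% lower in the authors' scaling. In the others 22.6%, 32.0% and 33.4% were lower and 12.4%, 10.4% and 11.3% higher. Of the other annotated peaks 28.6% were higher and 14.8% lower in the authors' scaling. In the others 26.1%, 24.3% and 25.2% of them were higher and 23.2%, 25.6% and 24.9% lower. The peak 9652 bp downstream of the start of Mycl, a further MYC family gene, rose from 64, 39 and 47 to 99, 103 and 116 (log2 difference 1.10, adjusted p = 2.8e-04 from limma). The Taf4a sKO values were all above the control values, at a low level. The peak 1105 bp upstream of Ccng2, which encodes a cyclin associated with cell cycle arrest, fell from 178, 190 and 248 to 132, 147 and 163 (log2 difference -0.47, adjusted p = 0.027 from limma), without overlap.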

How the data were processed

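ATAC-seq of 3 control and 3 Taf4a sKO libraries was analysed. The authors trimmed reads with Trimmomatic 0.39, aligned them with STAR 2.7.11b to mm10, removed duplicates (Picard 3.1.1) and mitochondrial, ribosomal, spliced and multi-mapping reads, ran MACS on each sample without an input, counted reads in the united peaks with featureCounts and annotated each peak with the nearest gene within 10000 bp. A shift for the Tn5 offset is not given in the sources used here. Each deposited value is a score, namely a read count that the authors multiplied by a factor for depth and rounded. Gaps in the run of whole numbers gave these factors as 1.39, 1.00 and 1.23 (control) and 1.39, 1.37 and 1.29 (Taf4a sKO). All 6 per-sample columns of the table were used.

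Because rounding and scaling took the values away from counts, limma 3.58.1 (R 4.3.3; trend and robust moderation) was used on log2(value + 1) for peaks with a mean above 10, with Benjamini-Hochberg adjustment over 75384 peaks. The log2 difference therefore understates changes of low peaks. Gained and lost peaks had a log2 ratio of group means (pseudocount 1) beyond 1. On simulated data, 90 of 100 peaks changed by 1 on the log2 scale and 32 of 100 changed by 0.5 were recovered, with 5 false calls. Only these peaks of 75264 were changed there, whereas 28.0% of the real peaks were called higher and 13.9% lower. The adjustment is stricter where few peaks change, so that these counts do not give the recovery or false calls in the real data. Precision is limited by 3 libraries per genotype. P-values weigh a difference against the spread between these libraries, which limma moderates with the spread of all peaks tested. Members, lists and tests were chosen with earlier results of these data known. Values in every library are given for each member peak called in the authors' scaling. They are also given for the TSS peaks of Ccnd1, Cdk1, Mcm2, Pcna, Mki67 and Myc whatever their result. From each further pathway list the peak of smallest adjusted p in each direction is named, and Plk1 and Chek1 were singled out after their values were seen. Starts and exons came from GENCODE vM21 (99.8% of the annotated genes found), exon numbers from the first-listed transcript, promoters from RefSeq. Alternatives covered scaling, pseudocount, filter, spread model, replicate block, TSS distance (500 and 3000 bp), the fold threshold and each library left out. One of the lists of cell type markers is not reported here.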

Additional observations from a re-analysis of the deposited data

How the results depend on the processing

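With the authors' scaling, 4 TSS peaks of cell cycle genes were higher and 1 was lower, and 2 other peaks were higher and 2 lower. Lower TSS peaks numbered 13 with median-of-ratios scaling, 15 with scaling to the total value, 18 with quantile normalization, 14 by percentile within the library (a measure added after seeing the data) and 0 without trend and robust moderation. Higher TSS peaks numbered 2 with quantile normalization and 2 without trend and robust moderation, which also left 1 higher other peak. Lower other peaks numbered 6, 9 and 8 in the 3 scalings. The cause of the difference between scalings was not tested. Leaving out 1 library each, higher TSS peaks ranged from 2 to 8, lower ones from 0 to 2, higher other peaks from 1 to 5 and lower ones from 2 to 4; the 8 and the 5 came without control replicate 3. At a threshold of 1.5-fold 2 peaks were lost. A pseudocount of 5, the filters on the mean and the TSS distances kept the number of calls in each direction within 1.5 times.

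The sign of Mcm2 was reversed in the 3 scalings (-0.068 with median-of-ratios, -0.10 with the total value and -0.13 with quantile normalization), and that of Myc likewise (-0.030, -0.065 and -0.018). Leaving out single libraries, control replicate 2 or 3 at the ends, the log2 difference ranged from -0.061 to 0.11 for Mcm2, -0.0069 to 0.19 for Myc, -0.077 to 0.097 for Cdk1, -0.11 to 0.060 for Pcna and -0.16 to 0.0085 for Mki67, and none of these values passed the test. The TSS peaks of Mycn and Mcm6, the Ccnd1 peak at 5971 bp and the E2f2 peak at -7200 bp kept direction and call in every alternative run; the E2f2 peak at 2457 bp lost its call without trend and robust moderation (adjusted p = 0.054 from limma).

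Same-numbered libraries of the 2 genotypes correlated in their deviations at 0.11, -0.12 and -0.03, and not every library correlated best with its own number, so that the numbers were not taken to pair the samples. With the replicate block 4 TSS peaks were higher and 2 lower, and 3 other peaks were higher.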
